A study of Rattus norvegicus with 10 samples.

Results

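The genes described here are the histone lysine modifiers and deacetylases of the rat round spermatid: lysine demethylases (Kdm), lysine methyltransferases (Kmt, Setd, Setdb, Ehmt, Suv39h), lysine acetyltransferases (Kat), histone deacetylases (Hdac), sirtuins (Sirt) and bromodomain proteins (Brd). They were chosen by symbol, as every protein-coding gene whose name starts with one of these stems followed by a number, leaving out Kat5, Kat8 and Sirt1. This gave 68 genes of the 32545 in the files, 22293 of which are protein-coding. The rule itself uses no measured value. Round spermatids, the haploid cells that follow meiosis, were taken from wild-type Brown Norway rats of 4 to 6 months (young, n = 5 libraries) and of 18 to 20 months (aged, n = 5 libraries), kept under normal conditions with free access to food and water. The cells were separated by sedimentation (the STA-PUT method) and total RNA was sequenced after an mRNA library kit. The labels do not say whether the libraries of an age came from separate animals or pools, so each p-value measures the spread between these libraries. Levels are given in FPKM, fragments scaled to the length of the gene model and to the size of the library, which allows levels of different genes to be compared.

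Histones carry acetyl and methyl groups on lysines that are set by writer enzymes, removed by erasers and bound by readers. Acetylation by the Kat enzymes is reversed by zinc-dependent deacetylases and by NAD-dependent sirtuins. Methylation of H3K4 and H3K36 goes with transcribed genes and methylation of H3K9 and H3K27 with silent chromatin. In spermatids this system works on chromatin that is about to be rebuilt: histone H4 becomes hyperacetylated before most histones are exchanged for transition proteins and then protamines, and transcription stops as the nucleus condenses. In mice, loss of Kdm3a or of Setd2 disturbs spermatid development.

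Start regions of 5 members are shown first, because their RNA carries the results below: Sirt2 and Brd3 had the highest levels, Kdm7a and Kdm3a were the members whose ages did not overlap, and Brd2 was 1 of the 2 members higher in aged libraries at an unadjusted p under 0.05. Each runs 5′ to 3′ from 250 bases before to 50 bases after the most 5′ RefSeq start of the gene in assembly GRCr8. Other starts of a gene were not examined. The CRE half-site TGACG, or its complement on the other strand, is in capitals. CREM, a regulator of spermatid genes, binds the full CRE TGACGTCA, which holds a half-site on both strands. The windows are chr1:93181222-93181521, plus strand for Sirt2, chr3:31193564-31193863, minus strand for Brd3, chr4:68992930-68993229, minus strand for Kdm7a, chr4:105233321-105233620, minus strand for Kdm3a and chr20:4729829-4730128, plus strand for Brd2.
Sirt2: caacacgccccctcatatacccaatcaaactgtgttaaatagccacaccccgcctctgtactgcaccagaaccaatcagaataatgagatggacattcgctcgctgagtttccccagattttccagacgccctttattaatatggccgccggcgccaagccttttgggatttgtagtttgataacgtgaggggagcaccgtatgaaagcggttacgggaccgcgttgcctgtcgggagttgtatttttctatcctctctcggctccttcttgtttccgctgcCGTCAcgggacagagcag
Brd3: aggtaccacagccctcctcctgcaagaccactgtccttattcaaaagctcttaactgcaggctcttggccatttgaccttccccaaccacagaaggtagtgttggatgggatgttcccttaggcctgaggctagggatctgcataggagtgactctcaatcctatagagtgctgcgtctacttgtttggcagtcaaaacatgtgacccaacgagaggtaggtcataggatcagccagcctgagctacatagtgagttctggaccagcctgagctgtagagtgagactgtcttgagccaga
Kdm7a: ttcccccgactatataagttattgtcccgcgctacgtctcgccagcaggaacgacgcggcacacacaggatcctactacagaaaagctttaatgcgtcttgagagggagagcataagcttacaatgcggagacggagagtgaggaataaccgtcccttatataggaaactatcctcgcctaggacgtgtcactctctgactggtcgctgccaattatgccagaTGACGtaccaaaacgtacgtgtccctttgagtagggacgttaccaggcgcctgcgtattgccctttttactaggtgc
Kdm3a: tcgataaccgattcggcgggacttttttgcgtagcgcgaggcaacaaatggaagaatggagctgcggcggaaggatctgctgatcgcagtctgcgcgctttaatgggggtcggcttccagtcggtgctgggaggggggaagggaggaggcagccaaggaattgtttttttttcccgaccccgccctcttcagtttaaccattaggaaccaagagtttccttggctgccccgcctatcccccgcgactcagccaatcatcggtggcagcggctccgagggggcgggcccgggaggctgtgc
Brd2: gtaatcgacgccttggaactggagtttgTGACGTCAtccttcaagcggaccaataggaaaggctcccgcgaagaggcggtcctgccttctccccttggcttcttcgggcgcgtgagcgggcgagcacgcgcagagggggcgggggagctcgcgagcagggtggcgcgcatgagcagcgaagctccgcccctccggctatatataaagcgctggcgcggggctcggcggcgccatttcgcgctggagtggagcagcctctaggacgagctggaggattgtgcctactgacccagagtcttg
The Brd2 window held a full CRE, counted as 2 half-sites, the Sirt2 and Kdm7a windows held 1 half-site each, and the Brd3 and Kdm3a windows held none. The Brd3 window held few CpG dinucleotides, 2 against 19 in Sirt2, 21 in Kdm7a, 24 in Kdm3a and 31 in Brd2. Its share of G and C bases, 51%, was the same as that of the Kdm7a window.

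Start regions were matched for 52 members, 50 by a symbol that is unique and 2 (Setd8 and Suv39h1l1) by an older symbol, each on the chromosome the files give, among 19005 protein-coding genes with such a window. They were mostly rich in CpG: the ratio of observed to expected CpG had a median of 0.82 in the members and 0.55 in all genes, and 48 of 52 members (92.3%) reached 0.6 against 46.5% of all genes. Brd3, at 0.103, had the lowest ratio among the members. The GC box GGGCGG, searched on both strands as were all motifs here, was in 32 windows (61.5%, against 43.2% of all genes). TATAAA was in 1 window (1.92%, against 13.1%). The half-site TGACG was in 19 windows (36.5%, against 24.2%), the box CCAAT in 21 (40.4%, against 38.4%), and the full CRE in 2 (3.85%, against 2.23%), those of Brd2 and Suv39h2. These are matches of letters in a fixed window at the most 5′ start of each gene. All genes here means every protein-coding gene with a window, expressed or not. The shares were not computed for tested genes alone, so they are not read as traits particular to the members. Which start is used in round spermatids was not tested.

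The members spanned a wide range of RNA levels, and a few of them held much of the signal. Of the 68 genes, 57 had a mean of at least 1 FPKM over the 10 libraries, the level from which a gene was tested. Sirt2, an NAD-dependent deacetylase of tubulin and histones that resides largely in the cytoplasm, was highest, and it ranked at place 231 of the 12985 genes tested. It made up 25% ± 1.57 (SD, n = 5) of the members' summed FPKM in young and 26.6% ± 1.58 (SD, n = 5) in aged libraries. Brd3, a BET protein that binds acetylated histones, followed at place 552. Ehmt2, the H3K9 methyltransferase also called G9a, came next with a mean of 114 FPKM. The ranges of Sirt2, Brd3 and Ehmt2 over the 10 libraries overlapped neither each other nor the member below. From the fourth place on, each neighbour in the order overlapped the next: the Hdac1l gene on chromosome 5 (91.5 FPKM), a Kdm4d gene (81.7), Kat7 (61.2), Kdm2b (48.4), Hdac2 (41.1), Kdm3a (35.7), Sirt3 (24.4) and Hdac3 (23.5).

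**Figure D1:**
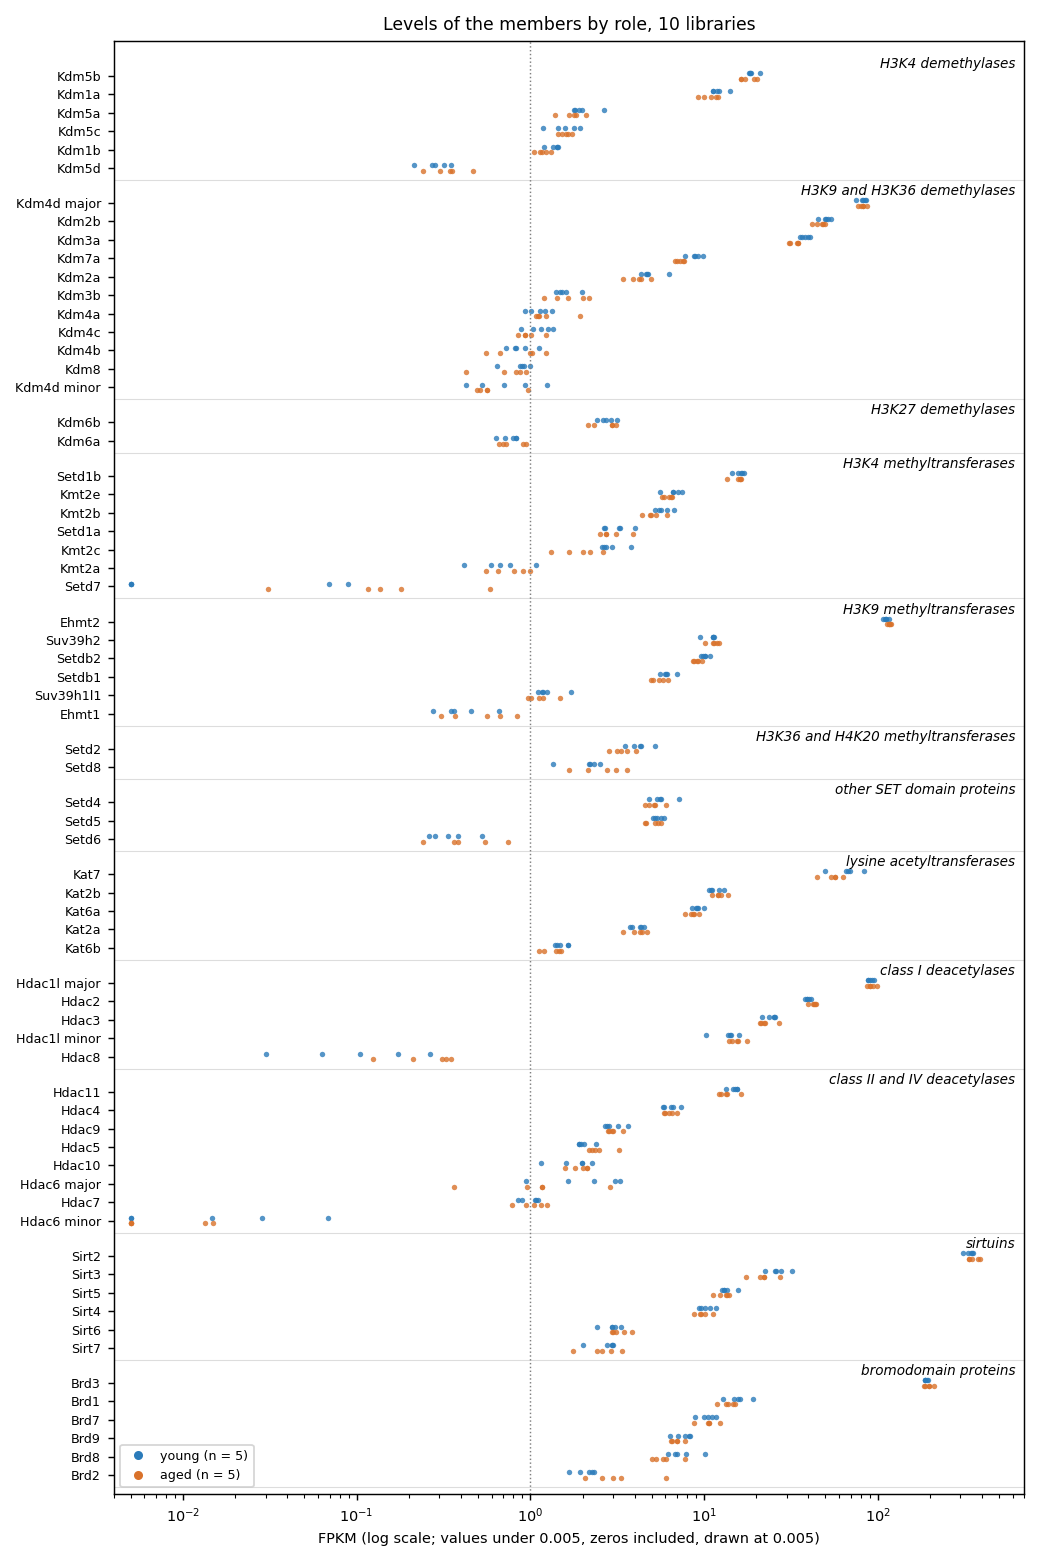
FPKM of the members in each library (points; blue for the 5 young and orange for the 5 aged libraries), on a log scale, grouped by role; the dotted line marks 1 FPKM, and values under 0.005, zeros included, are drawn at 0.005. Sirt2, Brd3 and Ehmt2 lie to the right of all other members, and several roles hold both an abundant gene and one under 1 FPKM.

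The 11 members under 1 FPKM were low at both ages. They were Kdm4b (mean 0.892 FPKM over the 10 libraries), Kdm8 (0.812), Kdm6a (0.775), Kmt2a (0.744), a second Kdm4d locus (0.695), Ehmt1 (0.485), Setd6 (0.407), Kdm5d (0.315), Hdac8 (0.196), Setd7 (0.121) and a second Hdac6 locus (0.014). Hdac8 had 1 to 12 fragments per library. Setd7, whose product methylates H3K4 and non-histone proteins, had 5 fragments in the young libraries together and 35 in the aged. These 11 were left out of the main test by their level. When no filter was applied, Hdac8 had an unadjusted p of 0.0362 and Setd7 of 0.0571 (limma), both with higher means in aged libraries, and the other 9 had p-values from 0.288 to 0.975.

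Kdm4d, Hdac1l and Hdac6 each occur at 2 loci, and reads of near-identical copies may have been divided between them, so their levels are uncertain. Kdm4d, a demethylase of H3K9 with high expression in testis, has a spliced locus (ENSRNOG00000024726, chr8:12968193-12993651, minus strand) with 81.7 FPKM and an unspliced locus, whose span equals its length (ENSRNOG00000045905, chr8:13511805-13513337, minus strand) with 0.695. Hdac1l, described in the files as histone deacetylase 1-like, has a spliced locus on chromosome 5 (ENSRNOG00000009568, chr5:147716664-147743723, minus strand) with 91.5 FPKM and an unspliced locus on chromosome 9 (ENSRNOG00000013695, chr9:84893145-84894599, minus strand) with 14.6. Both Hdac6 loci lie on chromosome X. All gene coordinates here are those of the deposited files, for which the sources used here name no genome build.

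In several of the pairs of paralogs compared here 1 gene was well above the other in every library. Within each library Ehmt2 was 142 to 405 times the level of its partner Ehmt1, with which it forms a dimer in other cells. Brd3 was 32.7 to 117 times Brd2, another BET protein. Brdt, a relative outside the members, had 116 ± 4.45 FPKM in young and 115 ± 5.14 in aged libraries (SD, n = 5 each). The means of Brd3 were 190.1 and 195 FPKM, so its lead over Brdt was far smaller. Suv39h2, the H3K9 methyltransferase known from testis, was 5.53 to 11.96 times Suv39h1l1. Among the demethylases, Kdm3a was 15.8 to 29.3 times Kdm3b, Kdm2b was 8.65 to 14.2 times Kdm2a, Kdm5b was 9.52 to 15.3 times Kdm5c, and the spliced Kdm4d locus was 42.5 to 88.5 times Kdm4a. The H3K4 methyltransferase Setd1b was 4.14 to 6.26 times Setd1a. The acetyltransferase Kat7 was 5.32 to 8.39 times Kat6a, and Kat2b was 2.36 to 4.03 times Kat2a. Among the class I deacetylases, the Hdac1l gene on chromosome 5, Hdac2 and Hdac3 were closer to each other, whereas Hdac8 was far lower (mean 0.196 FPKM). The Hdac1l gene on chromosome 5 was 1.96 to 2.49 times Hdac2, and Hdac2 was 1.47 to 2.11 times Hdac3. The order within each of these pairs of members was the same in all 10 libraries. The pairs were a selection, however, and some other relatives lay closer. Kdm4a and Kdm4c, for example, had means of 1.21 and 1.07 FPKM, with overlapping ranges.

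No member differed between aged and young round spermatids past the threshold for the whole table. None passed the test at an adjusted p of 0.05, as no gene of the 12985 tested did (0%; limma on log2(FPKM + 1) with Benjamini-Hochberg adjustment over all of them; voom on fragments recovered from the FPKM values also called 0). The smallest adjusted p among the members was 0.319. At an unadjusted p under 0.05 there were 9 of the 57 tested members (15.8%), against 11.9% of all genes. Of these, 7 (12.3% of the members) were lower in aged libraries, against 6.35% of all genes, and 2, Hdac2 and Brd2, were higher, against 5.54%. The 5 young and 5 aged values did not overlap for 2 members (3.51%), Kdm7a and Kdm3a, against 2.6% of all genes. Of all 1544 genes with an unadjusted p under 0.05, 46.6% were higher in aged libraries; with voom this share was 62.8%, and 10 members were under 0.05, of which 6 were lower.

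Most members leaned the same way by small amounts. In 38 of 57 (66.7%) the aged mean of log2(FPKM + 1) was below the young one, against 54.5% of all tested genes, and the median difference was -0.07 against -0.02. Over the other scalings, 34 (voom) to 40 (quantile) members were lower. By role, all 5 tested genes grouped as H3K4 methyltransferases, 4 of 5 H3K4 demethylases and 4 of 5 acetyltransferases were lower. Of the 4 tested class I deacetylase genes 3 were higher, among them both Hdac1l loci. Some of these differences were near 0: Setd1b and the Hdac1l gene on chromosome 5 changed sign without aged library 5. A difference between roles was not tested. The members are long genes, with a median model length of 3468 bp against 1886 bp for all tested genes. Genes longer than 3468 bp had a median difference of -0.08 among the members and -0.04 among all tested genes, and the others -0.06 and -0.01. The slope of each library's log2 levels on log2 gene length differed by -0.00342 between aged and young (two-sided exact permutation test over all choices of 5 of the 10 libraries, p = 0.706). Among genes averaging 5 FPKM or more it differed by -0.0194 (p = 0.127 in the same permutation test).

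**Figure D2:**
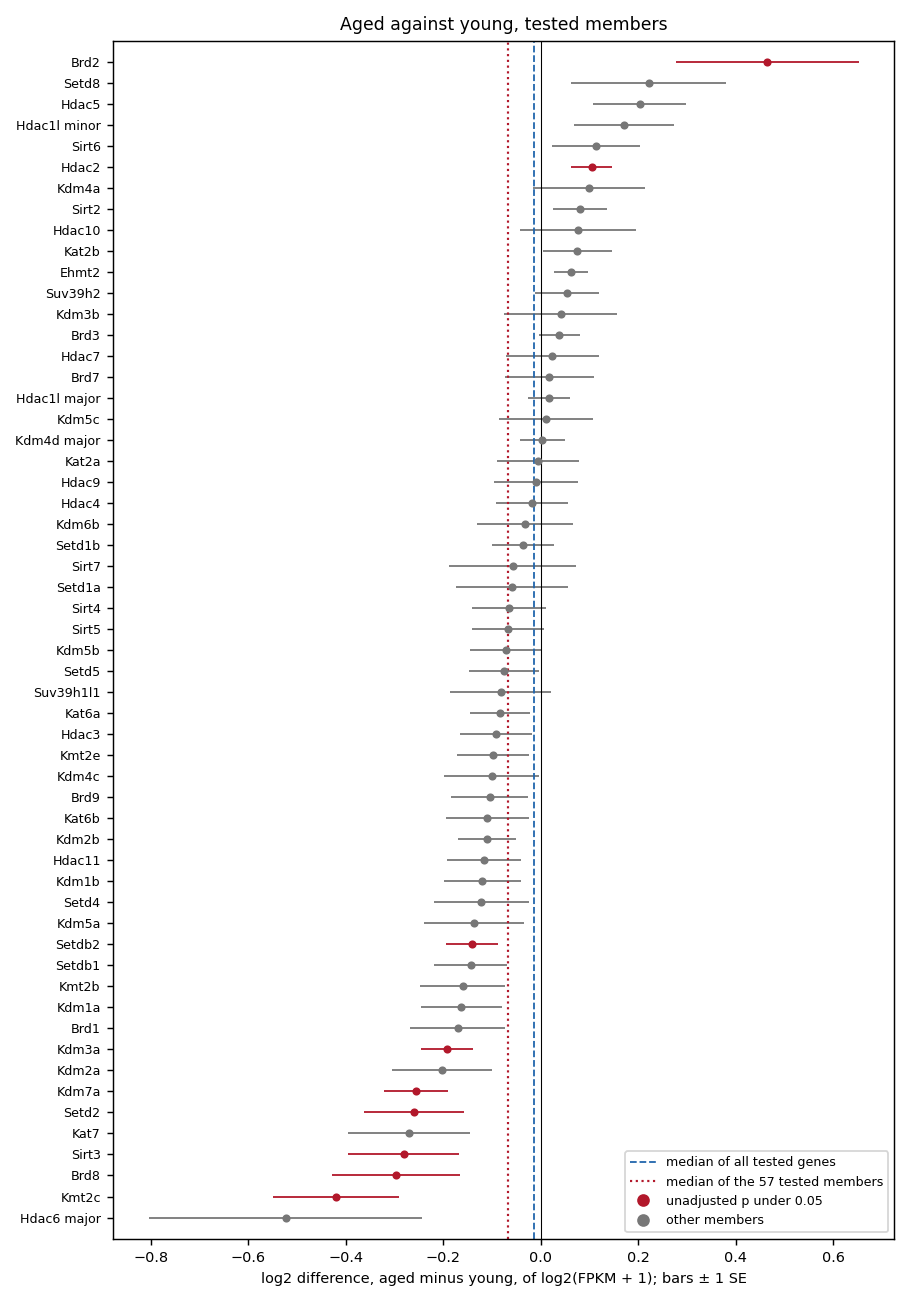
Difference of log2(FPKM + 1), aged minus young, for tested members (points; bars ± 1 SE), red for an unadjusted p under 0.05; the dashed line is the median of all tested genes and the dotted line that of the members. Most points lie to the left of 0, and Brd2 lies farthest to the right.

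Demethylases that act on H3K9 and H3K36 held the pair of members whose ages did not overlap. Kdm7a (ENSRNOG00000052445, chr4:66922013-66955732, minus strand) encodes a demethylase of dimethylated H3K9 and H3K27. Kdm7a stood at 9.83, 8.77, 8.86, 9.20 and 7.76 FPKM in young libraries 1 to 5 and at 6.81, 7.68, 7.57, 7.25 and 7.01 FPKM in aged libraries 1 to 5. Every aged value was below every young value, though the lowest young value, in library 5, was close to the highest aged value, in library 2. The means were 8.88 ± 0.751 FPKM (SD, n = 5) in young and 7.26 ± 0.37 FPKM (SD, n = 5) in aged libraries. The difference, aged minus young on the log2(FPKM + 1) scale as in all differences given here, was -0.26 (SE 0.07, unadjusted p = 0.00252, limma; Benjamini-Hochberg adjusted p = 0.319). Its unadjusted p stayed under 0.05 in all 21 alternative analyses. Its adjusted p ranged from 0.176 to 0.917 over them.

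Kdm3a (ENSRNOG00000007814, chr4:99503176-99546905, minus strand) encodes the H3K9 demethylase that in mouse spermatids acts at the transition protein and protamine genes. Young libraries 1 to 5 held 39.7, 38.02, 36.8, 40.8 and 35.6 FPKM of Kdm3a and aged libraries 1 to 5 held 31.5, 34.7, 34.9, 34.4 and 30.9. All aged libraries lay below all young ones, with aged 1 and 5 lowest. The means were 38.2 ± 2.11 FPKM (SD, n = 5) in young and 33.3 ± 1.91 FPKM (SD, n = 5) in aged libraries. The difference was -0.19 (SE 0.05, unadjusted p = 0.00394, limma; Benjamini-Hochberg adjusted p = 0.319). It too had an unadjusted p under 0.05 in 21 of 21 alternatives, with adjusted p-values from 0.178 to 0.917.

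The most abundant gene of this role had the same mean at both ages. For the spliced Kdm4d locus the values were 85.6, 82.1, 81.3, 84.3 and 75.1 FPKM in the young libraries, in order of replicate, and 77.5, 81.9, 82.3, 87.1 and 80.2 FPKM in the aged, so the ranges overlapped almost wholly, and the difference was 0.00 (SE 0.05, unadjusted p = 0.958, limma; Benjamini-Hochberg adjusted p = 0.984). Kdm2b, which removes methyl groups from H3K36 and binds CpG-rich DNA, had a mean of 50.3 ± 3.22 FPKM (SD, n = 5) in young and 46.5 ± 3.24 (SD, n = 5) in aged libraries and an unadjusted p of 0.0928 (limma). Of the 8 tested genes of this role 5 were lower and 3 higher in aged libraries.

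None of the 5 tested H3K4 demethylases reached an unadjusted p of 0.05. Kdm5b was the highest of them. Kdm5b stood at 18.6, 18.3, 20.97, 18.3 and 18.1 FPKM in young libraries 1 to 5 and at 16.3, 16.3, 17.2, 20.3 and 19.6 FPKM in aged libraries 1 to 5. Young library 3 and aged libraries 4 and 5 were high, and the groups overlapped. The flavin-dependent demethylase Kdm1a stood at 12.2 ± 1.12 FPKM (SD, n = 5) in young and 10.8 ± 1.19 (SD, n = 5) in aged libraries (unadjusted p = 0.0737, limma). Of the genes grouped as H3K27 demethylases, a role that leaves out Kdm7a, Kdm6b was the only one tested. Its level in young libraries 1 to 5 was 2.63, 2.93, 3.16, 2.74 and 2.42 FPKM, and in aged libraries 1 to 5 3.12, 2.32, 2.15, 2.97 and 2.96 FPKM. Neither age was higher throughout.

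All 5 tested genes grouped by symbol as H3K4 methyltransferases had a lower mean in aged libraries, and Kmt2c had the smallest p of them. The differences of Setd1b and Setd1a were small, at -0.04 and -0.06. Kmt2c (ENSRNOG00000007997, chr4:6282278-6292487, plus strand) encodes an enzyme of the MLL family that methylates H3K4 at enhancers. For Kmt2c the values were 2.59, 2.65, 3.79, 2.74 and 2.96 FPKM in the young libraries, in order of replicate, and 2.20, 2.61, 1.68, 2.02 and 1.31 FPKM in the aged. Aged library 2 overlapped the young range, and the other 4 aged libraries lay below all young ones. The difference was -0.42 (SE 0.13, unadjusted p = 0.0075, limma; Benjamini-Hochberg adjusted p = 0.319). The gene model in the files is 1029 bp long, far shorter than the known coding region, and rested on 22 to 57 fragments per library, so the value covers a fragment of the gene. Setd1b, a catalytic subunit of the SET1 complex, was highest in this role. Setd1b stood at 16.9, 16.4, 16.6, 15.8 and 14.4 FPKM in young libraries 1 to 5 and at 16.5, 16.1, 15.8, 16.1 and 13.6 FPKM in aged libraries 1 to 5. The groups overlapped, with the lowest value in aged library 5.

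Ehmt2 carried most of the RNA for H3K9 methyltransferases and had nearly the same level at both ages. Its level in young libraries 1 to 5 was 117, 111, 111, 108 and 112 FPKM, and in aged libraries 1 to 5 116, 113, 116, 119 and 118 FPKM. The groups overlapped, and young library 1 was as high as the aged ones. The means were 112 ± 3.23 FPKM (SD, n = 5) in young and 116 ± 2.50 FPKM (SD, n = 5) in aged libraries, and its coefficient of variation over the 10 libraries, 3.28%, was the lowest of all tested members. The difference was 0.06 (SE 0.03, unadjusted p = 0.105, limma; Benjamini-Hochberg adjusted p = 0.478).

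Setdb2 (ENSRNOG00000021680, chr15:39712861-39742103, minus strand), a less abundant H3K9 methyltransferase, had a lower mean in aged libraries. For Setdb2 the values were 10.2, 9.67, 9.86, 10.2 and 10.9 FPKM in the young libraries, in order of replicate, and 8.66, 9.10, 9.76, 9.21 and 8.82 FPKM in the aged. Aged library 3 alone was above the lowest young value, that of library 2. The difference was -0.14 (SE 0.05, unadjusted p = 0.0213, limma; Benjamini-Hochberg adjusted p = 0.37). With markers of other testis cells as a covariate the difference was -0.14 (unadjusted p = 0.0969), and with voom on recovered fragments it was -0.13 (unadjusted p = 0.0505).

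Setd2 (ENSRNOG00000020915, chr8:118803075-118888224, plus strand) is the main enzyme for trimethylated H3K36. Setd2 stood at 5.21, 4.36, 3.98, 4.29 and 3.52 FPKM in young libraries 1 to 5 and at 2.82, 3.61, 3.15, 4.08 and 3.32 FPKM in aged libraries 1 to 5. Young library 1 was highest, aged library 1 lowest, and the groups overlapped. The difference was -0.26 (SE 0.10, unadjusted p = 0.0272, limma; Benjamini-Hochberg adjusted p = 0.384). Without young library 1 it was -0.20 (unadjusted p = 0.0687), and with the marker covariate -0.24 (unadjusted p = 0.123). Setd8, an older symbol of the H4K20 methyltransferase Kmt5a, had a higher mean in aged libraries (2.67 ± 0.774 against 2.11 ± 0.444 FPKM, SD, n = 5 each), within the spread between libraries. Setd4 was the highest of the other SET domain genes. Its level in young libraries 1 to 5 was 7.22, 5.59, 5.36, 5.63 and 4.84 FPKM, and in aged libraries 1 to 5 4.57, 5.21, 5.16, 6.03 and 4.85 FPKM. Young library 1 stood above the rest, which overlapped.

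**Figure D3:**
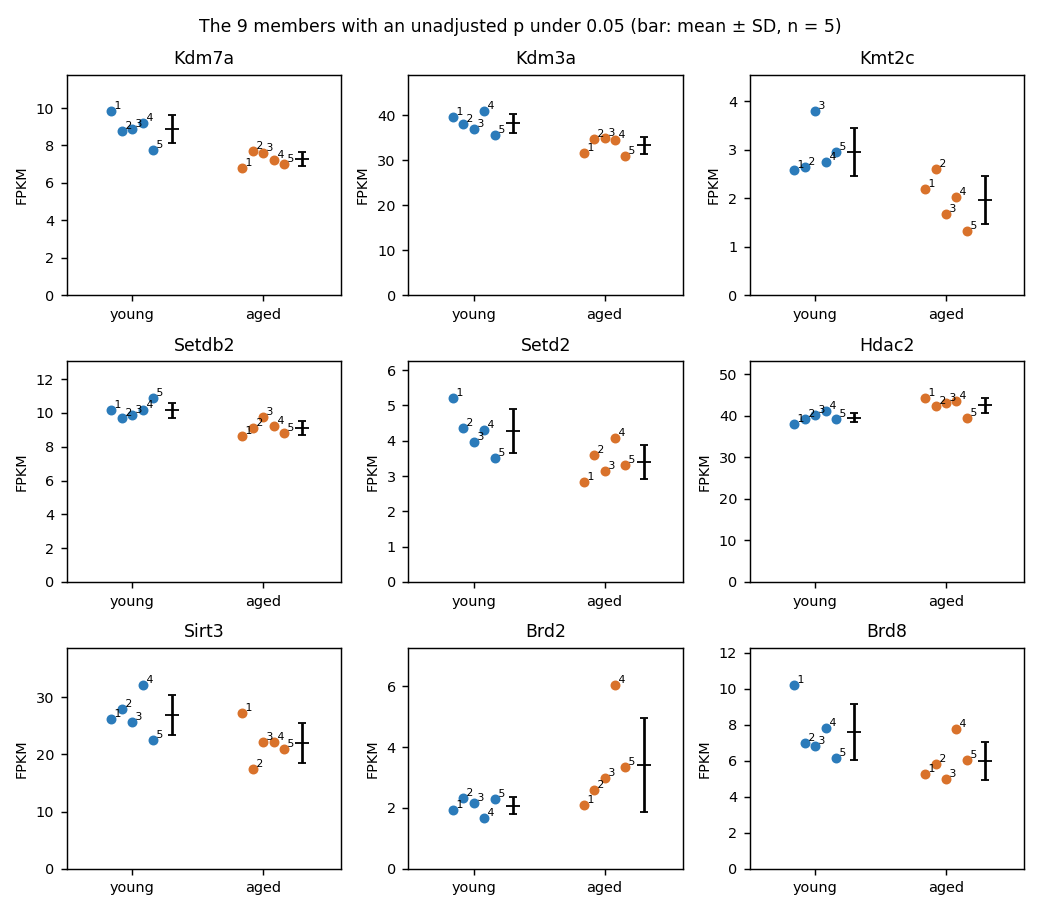
FPKM in each library (points, numbered by replicate) of the 9 members with an unadjusted p under 0.05; black bars show the mean ± SD of 5 libraries, and each axis starts at 0. Kdm7a and Kdm3a show no overlap between the ages, Brd2 has a single high aged library, number 4, and Setd2 and Brd8 have their highest value in young library 1.

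Acetyltransferases were led by Kat7, also called HBO1, which acetylates H3 and H4 at replication origins and genes. For Kat7 the values were 83.9, 69.1, 67.8, 65.99 and 49.6 FPKM in the young libraries, in order of replicate, and 45.05, 56.8, 56.5, 63.5 and 54.1 FPKM in the aged. Young library 1 was far above the rest and young library 5 fell among the aged values. The means were 67.3 ± 12.2 FPKM (SD, n = 5) in young and 55.2 ± 6.66 FPKM (SD, n = 5) in aged libraries. The difference was -0.27 (SE 0.13, unadjusted p = 0.0541, limma; Benjamini-Hochberg adjusted p = 0.428). Without young library 5 it was -0.37 (unadjusted p = 0.00367), without young library 1 it was -0.19 (unadjusted p = 0.136), and without aged library 1 it was -0.20 (unadjusted p = 0.135). Over all 21 alternatives its unadjusted p was under 0.05 in 3. Kat2b, Kat6a, Kat2a and Kat6b had means between 1.43 and 11.97 FPKM over the 10 libraries and unadjusted p-values from 0.195 to 0.951 (limma).

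Class I deacetylases, among them the catalytic subunits of the Sin3, NuRD, CoREST and NCoR complexes, were the role in which most means were higher in aged libraries. Besides Hdac2 these were the 2 Hdac1l loci, whose levels are uncertain. They differed by 0.02 on chromosome 5 (unadjusted p = 0.713, limma) and by 0.17 on chromosome 9 (unadjusted p = 0.123, limma). Hdac2 (ENSRNOG00000000604, chr20:43084870-43108198, minus strand) had the smallest p. Hdac2 stood at 38.2, 39.2, 40.2, 41.1 and 39.2 FPKM in young libraries 1 to 5 and at 44.3, 42.5, 43.2, 43.6 and 39.6 FPKM in aged libraries 1 to 5. Aged libraries 1 to 4 were above every young library, and aged library 5 fell within the young range. The means were 39.6 ± 1.13 FPKM (SD, n = 5) in young and 42.6 ± 1.80 FPKM (SD, n = 5) in aged libraries. The difference was 0.10 (SE 0.04, unadjusted p = 0.03, limma; Benjamini-Hochberg adjusted p = 0.391). Its unadjusted p was under 0.05 in 12 of 21 alternatives. With the marker covariate the difference was 0.09 (unadjusted p = 0.139). Young libraries 1 to 5 held 94.8, 88.5, 90.6, 92.7 and 88.1 FPKM of Hdac1l on chromosome 5 and aged libraries 1 to 5 held 86.7, 90.5, 94.2, 90.1 and 98.6. These ranges overlapped fully. Hdac3, the NCoR deacetylase, had a mean of 24.3 ± 1.70 FPKM (SD, n = 5) in young and 22.8 ± 2.42 (SD, n = 5) in aged libraries.

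Class II and IV deacetylases were less abundant and gave no member with an unadjusted p under 0.05. Hdac11, the class IV enzyme, was the highest. For Hdac11 the values were 13.4, 15.1, 15.4, 14.7 and 15.5 FPKM in the young libraries, in order of replicate, and 16.4, 12.3, 13.5, 12.5 and 13.6 FPKM in the aged. Aged library 1 was the highest of all 10 while the other aged libraries lay at or below most young ones. The difference was -0.12 (SE 0.08, unadjusted p = 0.155, limma; Benjamini-Hochberg adjusted p = 0.528). Without aged library 1 it was -0.18 (unadjusted p = 0.0123), and its p was under 0.05 in 2 of 21 alternatives. Hdac5 had means of 2.04 ± 0.204 FPKM (SD, n = 5) in young and 2.51 ± 0.427 (SD, n = 5) in aged libraries, with an unadjusted p of 0.0569. The more abundant locus of Hdac6, a tubulin deacetylase, varied more than any other tested member, from 0.366 to 3.30 FPKM (coefficient of variation 57.9%), and its difference was -0.52 (SE 0.28, unadjusted p = 0.0882, limma; Benjamini-Hochberg adjusted p = 0.467).

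Among the sirtuins, Sirt2 was high at both ages and Sirt3 had a lower mean in aged libraries. Sirt2 stood at 310.5, 348, 331, 347 and 353 FPKM in young libraries 1 to 5 and at 377, 350.2, 389.6, 336 and 334 FPKM in aged libraries 1 to 5. The ranges overlapped, and the difference was 0.08 (SE 0.06, unadjusted p = 0.173, limma; Benjamini-Hochberg adjusted p = 0.545). Sirt3 (ENSRNOG00000013828, chr1:213613513-213635546, minus strand) encodes the main deacetylase of the mitochondrial matrix. Young libraries 1 to 5 held 26.1, 27.9, 25.6, 32.1 and 22.5 FPKM of Sirt3 and aged libraries 1 to 5 held 27.3, 17.4, 22.1, 22.2 and 21.01. Aged library 2 was lowest and young library 4 highest, and aged library 1 lay inside the young range. The difference was -0.28 (SE 0.11, unadjusted p = 0.0306, limma; Benjamini-Hochberg adjusted p = 0.391). With the marker covariate it was -0.13 (unadjusted p = 0.382). The ratio of Sirt2 to Sirt3 within a library had a median of 12.5 in young and 15.9 in aged libraries, and the ranges overlapped.

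Bromodomain proteins gave 1 member lower and 1 higher in aged libraries at an unadjusted p under 0.05. Brd3 was abundant and steady. For Brd3 the values were 187, 189, 193, 194 and 188 FPKM in the young libraries, in order of replicate, and 198, 187, 210.5, 197 and 184 FPKM in the aged. The aged libraries spread more widely on both sides of the young ones, with means of 190.1 ± 3.37 FPKM (SD, n = 5) in young and 195 ± 10.3 FPKM (SD, n = 5) in aged libraries. Brd2 (ENSRNOG00000000461, chr20:5262120-5269337, plus strand), a BET protein, had a higher mean in aged libraries. Brd2 stood at 1.94, 2.31, 2.17, 1.67 and 2.28 FPKM in young libraries 1 to 5 and at 2.08, 2.60, 2.99, 6.04 and 3.34 FPKM in aged libraries 1 to 5. Aged library 4 was far above the rest, and aged library 1 lay within the young range. The difference was 0.46 (SE 0.19, unadjusted p = 0.0307, limma; Benjamini-Hochberg adjusted p = 0.391). Without aged library 4 it was 0.28 (unadjusted p = 0.0381). The pseudocount of 1 compresses differences of genes at such low levels.

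Brd8 (ENSRNOG00000020340, chr18:27398688-27424090, minus strand) is a subunit of the NuA4/TIP60 acetyltransferase complex. Young libraries 1 to 5 held 10.2, 7.01, 6.83, 7.84 and 6.17 FPKM of Brd8 and aged libraries 1 to 5 held 5.29, 5.80, 5.01, 7.77 and 6.06. Young library 1 was highest, young libraries 2, 3 and 5 lay inside the aged range, and the difference was -0.30 (SE 0.13, unadjusted p = 0.0453, limma; Benjamini-Hochberg adjusted p = 0.418). Without young library 1 it was -0.20 (unadjusted p = 0.109), and its unadjusted p was under 0.05 in 8 of 21 alternatives. Brd1, a scaffold of Kat7 and Kat6 complexes, had a mean of 15.7 ± 2.29 FPKM (SD, n = 5) in young and 13.8 ± 1.31 (SD, n = 5) in aged libraries. Brd7 and Brd9, subunits of SWI/SNF remodelling complexes, differed by less than the spread between libraries.

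Members on the sex chromosomes were all low. Sex chromosomes are silenced during meiosis and stay largely repressed in round spermatids. The 6 genes on X (both Hdac6 loci, Kdm5c, Suv39h1l1, Kdm6a and Hdac8) had means from 0.014 to 1.78 FPKM, with 3 at or above 1, and Kdm5d on Y had 0.315. Of the 61 autosomal members 54 (88.5%) reached 1 FPKM, with a median of 5.81, and 48 were above the highest gene on a sex chromosome. Among all protein-coding genes 39.4% of 827 on X and 50.7% of 21238 on autosomes reached 1 FPKM, with medians of 0.488 and 1.06. On Y 9 of 15 (60%) did, with a median of 1.34, so low levels were not general there. Kdm6a and Kdm5c, whose products remove methyl groups from H3K27 and H3K4, were at 0.775 and 1.59 FPKM, and the autosomal Kdm5b was at 18.4.

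**Figure D4:**
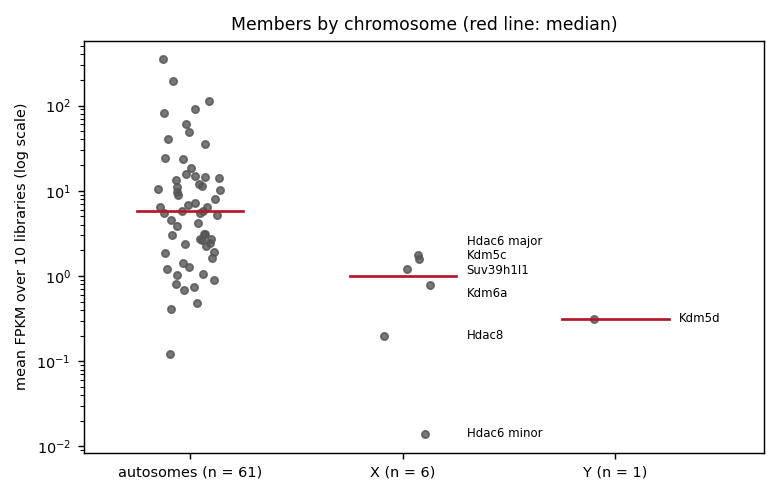
Mean FPKM over 10 libraries of each member (points, log scale) on autosomes, X and Y, with the median as a red line; names are given for genes on X and Y. Autosomal members reach 347.6 FPKM, whereas the highest on a sex chromosome, the major Hdac6 locus, has 1.78.

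Genes that work with these enzymes were examined in the same way. In 5 lists of partner genes, 110 genes were tested, of which 59 (53.6%, against 54.5% of all genes) were lower in aged libraries, with a median difference of -0.02. None passed the adjusted test, and 8 (7.27%, against 11.9% of all genes), 5 lower and 3 higher, had an unadjusted p under 0.05. Among 24 modifiers under other names, led by the H3K79 methyltransferase Dot1l, the acetyltransferase Ep300 was lower (6.95 ± 0.663 against 8.01 ± 0.573 FPKM, SD, n = 5 each). The arginine methyltransferase Prmt1 was higher (11.7 ± 1.29 against 10.2 ± 0.828 FPKM). Of 27 genes of deacetylase complexes, led by the Sin3 subunit Sap130 (114 ± 9.66 FPKM in aged and 109 ± 5.29 in young), only the Sin3 subunit Suds3 came under 0.05 (52.2 ± 1.53 in aged against 47.8 ± 4.22 FPKM in young). None of the 12 partners of the H3K4 methyltransferases did, and Ash2l, the most abundant of them over the 10 libraries, had 187 ± 7.06 FPKM in aged and 186 ± 5.67 in young libraries. The 28 genes of acetyltransferase complexes were led by Taf10, at 188 ± 9.48 FPKM in aged and 188 ± 22.5 in young libraries. Under 0.05, Dmap1 was higher (10.2 ± 0.705 against 8.48 ± 0.914 FPKM) and Ep400, which like Dmap1 and Brd8 belongs to the TIP60 complex, was lower (18.7 ± 0.964 against 20.54 ± 1.149). The 20 tested reader genes, led by the corepressor Trim28 (383 ± 24.3 FPKM in aged and 398 ± 11.97 in young), had 15 with a lower mean in aged libraries. The 3 of these with an unadjusted p under 0.05 were Brwd1 (4.16 ± 0.0743 against 4.76 ± 0.271 FPKM), L3mbtl2 (3.46 ± 0.369 against 4.31 ± 0.773) and Baz1a (53.0 ± 3.14 against 58.3 ± 4.22). All these p-values came from the same limma analysis.

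Libraries of the same age differed in ways that bear on these values. They held 14488222 to 17401744 fragments in young and 15992576 to 18203223 in aged rats. Round spermatid markers summed to 20877 to 33027 FPKM in young and 21028 to 27349 in aged libraries. Most of this sum came from Prm1, Tnp2 and Tnp1, which had lower means in aged libraries. Of the 14 markers 9 were higher and 5 lower in aged libraries, and 1, Acr, had an unadjusted p under 0.05 (higher, limma). Markers of Sertoli, Leydig, peritubular and macrophage cells summed to 206 to 278 FPKM in young and 271 to 1045 in aged libraries, highest in aged 2 and then aged 1. Of 40 tested, 37 were higher in aged libraries and 19 of those had an unadjusted p under 0.05. The other 3 were lower, and 2 of them, the macrophage markers Adgre1 and Cx3cr1, also had an unadjusted p under 0.05. No marker was at 0 in every library, and the Leydig marker Insl3 reached 86.4 FPKM in an aged library. Spermatocyte markers summed to 415 to 530 FPKM in young and 386 to 471 in aged libraries. Of these, 10 of 12 had a lower mean in aged, 3 of them with an unadjusted p under 0.05. With the somatic markers as a covariate 5 members (8.77%), 4 of them lower in aged, had an unadjusted p under 0.05, against 4.64% of all tested genes. A difference in RNA per cell and a difference in the share of cells of a type cannot be told apart in these bulk libraries.

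Young library 1 held the highest value of 22 of the 57 tested members, and its median deviation from the 10-library mean was 0.11 on the log2 scale. Aged library 1 held the lowest value of 15 members (median deviation -0.08), aged library 5 of 12 and aged library 4 of none. Over all tested genes the median deviation was 0.0014 in young library 1 and -0.019 in aged library 1. How often each library held the highest or lowest value was not counted over all tested genes. Without young library 5 there were 14 members (24.6%) with an unadjusted p under 0.05, 11 of them lower, against 16.8% of all genes. Without aged library 4 there were 13 (22.8%), 11 of them lower, against 13.2%. Without young library 1, 2 or 4, or without aged library 3, there were 6 (10.5%) in each case, against 8.89%, 9.98%, 9.26% and 12.7% of all genes.

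**Figure D5:**
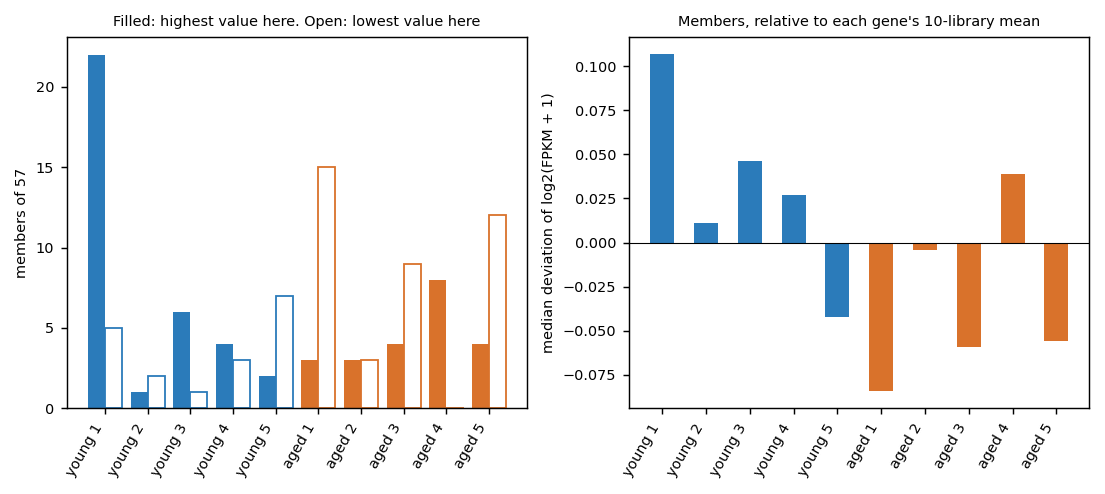
Left, the number of the 57 tested members that have their highest value (filled bars) or their lowest value (open bars) in each library; right, the median deviation of the members' log2(FPKM + 1) from each gene's mean over 10 libraries. Young library 1 stands out with 22 highest values, and aged library 1 with 15 lowest values and a median deviation of -0.08.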

How the data were processed

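Gene-level FPKM values were deposited by the authors as a table per library; reads were aligned with HISAT2 2.0.5 and counted with featureCounts 1.5.0-p3, per the submitters' processing notes. The sources used here name no genome build, annotation release, strand setting or treatment of reads with several matches. Each FPKM value times gene length was a whole multiple of 1 step per library (100% of values within 0.001), which gave the fragment totals. Genes averaging 1 FPKM or more over 10 libraries (12985) were compared with limma 3.58.1 in R 4.3.3 (lmFit, eBayes with trend) on log2(FPKM + 1), so folds of low genes are understated; p-values were two-sided and Benjamini-Hochberg adjusted over all genes. The fit was tested on simulated data. Library-level values used an exact permutation test. Alternatives changed the pseudocount (0.1), the filter, the scaling, the model, the replicate block, other-cell markers, gene length and the libraries kept. Members and gene lists were chosen with earlier results of these data known. Values in each library are given for members with an unadjusted p under 0.05, members without overlap, and the highest member of each role. Partner genes are named if they are the most abundant of a list or among the 3 smallest unadjusted p under 0.05. Brdt is named as a relative of Brd3. Start regions came from RefSeq GRCr8, at the most 5′ start of each gene. Same-numbered libraries had correlations of their deviations from -0.16 to 0.05, so the numbers were not taken as pairs. Values of 1 member that counts among the 68 are not reported here.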

Additional observations from a re-analysis of the deposited data

Results flagged for a closer look

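In 114 groups of 5 libraries (57 members, 2 ages), 11 held a library that stood apart. Its distance to its nearest neighbour was more than 0.71 of the group's whole range. For independent groups of normally distributed values the rule gives about 1 in 20, or 5.7. These groups share libraries, and the share over all tested genes was not computed, so the count is not read as a trait of the members. Young library 1 gave 4 of the 11. Suv39h2, the testis H3K9 methyltransferase, was at 9.525 FPKM there against 11.24 to 11.36 in the other young libraries, whereas Suv39h1l1 was at 1.722 against 1.108 to 1.243. The H3K36 demethylase Kdm2a was at 6.261 against 4.318 to 4.774, and the H3K4 demethylase Kdm5a at 2.662 against 1.789 to 1.997. Aged library 5 was high for Hdac3, at 26.96 FPKM against 20.95 to 22.52, and low for Setd1b, at 13.61 against 15.78 to 16.45. Aged library 2 was high for Hdac5, at 3.246 against 2.173 to 2.479, and for Kdm4a, at 1.925 against 1.077 to 1.226. Hdac5 was also high in young library 5, at 2.388 against 1.899 to 2.036. Kdm5b was high in young library 3, at 20.97 against 18.08 to 18.57, and Sirt7 was low in young library 4, at 2.013 against 2.756 to 3.005.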

How the results depend on the processing

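With each of the libraries left out in turn, the count of all genes called was 0 to 1 (1 without young library 1 and 1 without young library 2), that of members with an unadjusted p under 0.05 was 6 to 14 and that of lower members 4 to 11 (4 without young library 2); the other alternatives called 0 genes. With somatic markers as a covariate there were 5 such members, 4 of them lower, and 602 genes in all against 1544. With the replicate block there were 6, 5 of them lower, and 1255 genes in all. Of the young libraries only 3 correlated best with the aged library of its own number, at 0.0097. Aged library 3 was also the best match of young libraries 2 and 4. The members' median difference was negative in every alternative, from -0.04 to -0.09. The 9 members with an unadjusted p under 0.05 kept their direction in all 186 values and missed 0.05 in 41. The other named members gave 230 values, of which 8 came under 0.05 and 10 changed sign. Kdm5b was 0.018 with the covariate and 0.010 without both aged libraries 1 and 2, and Kdm6b was 0.018 with the covariate. Leaving out single libraries gave -0.071 to 0.0096 for Setd1b, -0.0089 to 0.037 for Hdac1l on chromosome 5, -0.073 to 0.024 for Kdm6b, -0.027 to 0.021 for the spliced Kdm4d locus and -0.00746 to 0.00224 for the length slope, which was -0.0194 at a mean of 5 FPKM; the cause was not tested. The share higher in aged among all genes under 0.05 was 46.6%, 56.0% with median-of-ratios, 61% with TPM and 62.8% with voom. Without a filter 2379 genes were under 0.05, at a mean of 5 FPKM 887. Depth limits the members under 1 FPKM, which had as few as 0 fragments in a library.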
